A study of Mus musculus with 16 samples.

Results

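The genes examined here are 10 genes of the NRF2 pathway and of peroxide and superoxide defence, *Nfe2l2*, *Keap1*, *Nqo1*, *Hmox1*, *Txnrd1*, *Srxn1*, *Prdx1*, *Prdx2*, *Cat* and *Sod1*. They were taken by symbol from a count table of 55416 genes, and each of the 10 matched a single entry. RNA-seq was performed on erythroblasts of mouse foetal livers at E13.5, gated as S1 or S3 on Ter119 and CD71, with 1 library per embryo and stage. S1 is the earlier gate and S3 holds basophilic erythroblasts. The 16 libraries came from 4 *Nprl3*+/+ embryos (WT, embryos 0, 1, 5 and 8), 2 *Nprl3*+/- embryos (Het, 3 and 4) and 2 *Nprl3*-/- embryos (KO, 2 and 9), and values below follow that order of embryos. The KO is a constitutive deletion of the *Nprl3* promoter in the whole embryo, so that the livers' other cells and the rest of the embryo lack it too.

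NRF2, the protein of *Nfe2l2*, is a transcription factor that KEAP1 holds in the cytoplasm and presents to a ubiquitin ligase for destruction. Oxidants modify KEAP1, NRF2 then accumulates, pairs with small MAF proteins and binds antioxidant response elements near genes for quinone reduction, haem breakdown, glutathione and thioredoxin. Much of this control acts on protein, so the *Nfe2l2* transcript is not a readout of NRF2 activity. Erythroid cells produce superoxide and peroxide as haemoglobin oxidises. They clear them with superoxide dismutase, catalase, glutathione peroxidase and peroxiredoxins, of which PRDX2 is the abundant form of the red cell.

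The labelled stages carried their markers. The summed level of 5 early erythroid genes (*Kit*, *Myb*, *Gata2*, *Cd34* and *Myc*) ran from 419 to 624 CPM (TMM-scaled counts relative to library size) at S1 and from 17.6 to 41.8 CPM at S3, while 13 late erythroid genes ran from 1958 to 9541 CPM at S1 and from 160494 to 214954 CPM at S3. The total count per library lay between 20666044 and 37609502. *Nprl3* stood at 0.309 and 0.657 CPM in KO against 21.02 to 33.8 CPM in WT at S1. At S3 it stood at 109.8 and 117 CPM in KO against 143 to 214 CPM in WT, with the KO libraries below all WT libraries. Introns of *Nprl3* hold most of the mouse α-globin enhancers, which the deletion spares, and spliced transcripts that begin there can carry *Nprl3* exons, so that the S3 count is no measure of promoter-derived *Nprl3* alone. The S1 libraries of WT embryos 0 and 8 stood apart from the other 6. Their late erythroid sums were 9529 and 9541 CPM against 1958 to 3623 CPM in the others, and 11 neutrophil granule genes summed to 196 and 120.4 CPM against 1105 to 1653 CPM. For the 10 genes, results that rest on these embryos are given with and without them. Comparisons of marker genes include them throughout. All levels are relative to the RNA in a library, and globin genes took 10.0% to 11.8% of the counts at S3 against 0.0738% to 1.07% at S1.

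Promoter sequences were set beside the expression values because the antioxidant response element is the site through which NRF2 acts. RefSeq promoters on GRCm38.p6 were found for 9 of the 10 genes, *Hmox1* being the other, with 3 start sites for *Txnrd1* and so 11 in all. The 250 bases before each start were searched on both strands for TGACNNNGC, the core of the element, and for TGANTCA, the AP-1 type core that NF-E2 and small MAF dimers also recognise. The motifs can overlap. Of 32851 promoters, 10.2% held the former, 6.75% the latter and 16.1% either. Among the 9 genes, *Nfe2l2*, *Txnrd1*, *Srxn1*, *Prdx1* and *Sod1* held either motif and *Keap1*, *Nqo1*, *Prdx2* and *Cat* held neither in this window. The sequences of *Srxn1*, *Prdx1* and *Prdx2* are shown, 5′ to 3′ on the gene's strand with matches in capitals, since *Srxn1* held 2 matches and rose 17.3-fold between stages in WT, *Prdx1* held 2 AP-1 type matches and did not pass the test between stages, and *Prdx2* held none and rose 12.9-fold. They lie at chr2:152105274-152105523, chr4:116685349-116685598 and chr8:84969372-84969621, all on the plus strand.
Srxn1: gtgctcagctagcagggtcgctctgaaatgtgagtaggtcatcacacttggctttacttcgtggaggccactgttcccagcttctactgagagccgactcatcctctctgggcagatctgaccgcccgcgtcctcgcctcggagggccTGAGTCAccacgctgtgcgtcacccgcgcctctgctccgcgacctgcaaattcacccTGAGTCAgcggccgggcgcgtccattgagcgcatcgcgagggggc
Prdx1: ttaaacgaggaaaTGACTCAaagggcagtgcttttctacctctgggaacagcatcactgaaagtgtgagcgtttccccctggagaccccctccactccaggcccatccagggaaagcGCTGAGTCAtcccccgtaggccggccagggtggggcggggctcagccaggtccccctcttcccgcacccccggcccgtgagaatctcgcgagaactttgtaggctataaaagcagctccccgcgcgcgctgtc
Prdx2: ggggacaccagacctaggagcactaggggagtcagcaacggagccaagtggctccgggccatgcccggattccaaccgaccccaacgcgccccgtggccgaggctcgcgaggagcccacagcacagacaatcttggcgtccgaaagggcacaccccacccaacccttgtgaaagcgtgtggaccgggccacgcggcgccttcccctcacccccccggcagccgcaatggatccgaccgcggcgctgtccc
In *Srxn1* both matches read TGAGTCA and begin 102 and 45 bases before the start. In *Prdx1* the AP-1 type matches begin at 237 and 131 bases before the start, and the latter lies inside a match to TGACNNNGC on the minus strand. These are matches of letters only, and binding was not measured.

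Maturation from S1 to S3 was the largest difference in these genes. In WT embryos 7 of the 10 genes rose and 0 fell (edgeR's quasi-likelihood test with a Benjamini-Hochberg adjusted p under 0.05 over all 13514 genes tested), where 30.6% of all genes tested rose and 35% fell. All WT S3 libraries lay above all WT S1 libraries for 8 of the 10, against 28.6% of all genes. The median log2 fold change of the 10 was 1.68, against -0.08 over all genes. Sulfiredoxin, peroxiredoxin 2, catalase and the NRF2 targets *Nqo1* and *Hmox1* rose by 6.56-fold to 17.3-fold, *Keap1* and *Sod1* by 1.52-fold and 1.57-fold, and *Nfe2l2*, *Txnrd1* and *Prdx1* did not pass the test. Markers of other cells also differed between the WT stages. Of 13 macrophage genes tested, 10 rose (median log2 fold change 1.91), and the sum of all 15 was 20.6 to 44.0 CPM at S1 and 46.9 to 102.7 CPM at S3. Of 14 hepatoblast genes 6 rose (median 1.35), and of 10 neutrophil granule genes tested 10 fell (median -7.80). All 3 primitive erythroid genes (*Hbb-y*, *Hbb-bh1* and *Hba-x*) rose (median 5.82). Their sum was 3.51 to 87.3 CPM at S1 and 2185 to 4382 CPM at S3. Their part in the rises of the 10 genes, *Hmox1* included, was not tested.

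**Figure D1:**
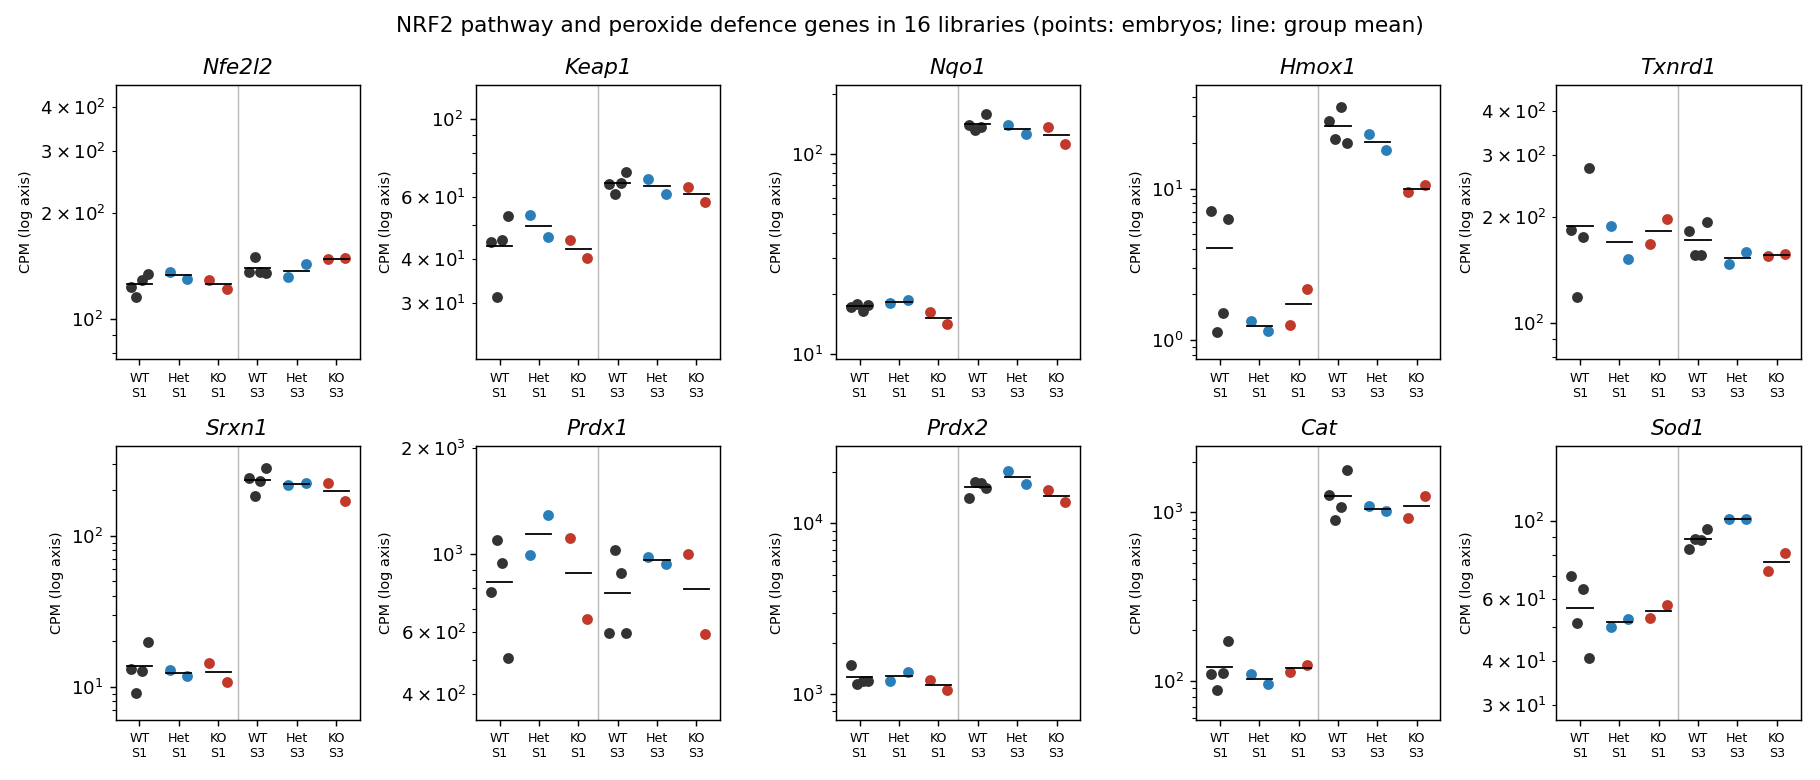
Level of each of the 10 genes in the 16 libraries, in CPM on a log axis, by genotype and stage, with each point an embryo and the line the group mean. *Srxn1*, *Prdx2*, *Cat*, *Nqo1* and *Hmox1* lie higher at S3 than at S1 in every genotype. *Nfe2l2*, *Txnrd1* and *Prdx1* did not pass the test between stages in any genotype, *Prdx1* with a wide spread between embryos (507 to 1287 CPM at S1).

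Of the regulators, *Keap1* rose and *Nfe2l2* did not pass the test. *Nfe2l2* (ENSMUSG00000015839.7, chromosome 2 of mm39, 75505857 to 75534985, minus strand) encodes NRF2. It stood at 123, 115, 129 and 134 CPM in the WT S1 libraries and at 136, 150.2, 136 and 135 CPM at S3. The S3 libraries lay above all S1 libraries by a small margin, and the log2 fold change of 0.16 (95% interval -0.09 to 0.41) did not pass (edgeR adjusted p = 0.234). Between stages of the same embryo it was higher at S3 in 7 of 8 embryos over all genotypes, by at most 1.30-fold.

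*Keap1*, the adaptor that marks NRF2 for destruction (ENSMUSG00000003308.16, chromosome 9, 21141026 to 21150657, minus strand), stood at 44.6, 31.1, 45.1 and 53.0 CPM at S1 and at 65.0, 61.0, 65.7 and 70.4 CPM at S3 in WT. All S3 libraries lay above all S1 libraries. It rose by 0.60 on the log2 scale (SE 0.16, edgeR adjusted p = 0.00633). In the annotation 10.9% of its exon bases are shared with *Gm16754* on the opposite strand, and counting ignored strand.

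The quinone and haem enzymes rose. *Nqo1* encodes NAD(P)H quinone dehydrogenase, a classical NRF2 target (ENSMUSG00000003849.9, chromosome 8, 108114857 to 108129838, minus strand). Its WT level was 17.2, 17.8, 16.4 and 17.5 CPM at S1 and 139.9, 131, 135 and 158 CPM at S3. The embryos of a stage lay close together, with 17.2 ± 0.602 CPM at S1 and 141 ± 11.8 CPM at S3 (SD, n = 4). The log2 fold change was 3.04 (SE 0.13, edgeR adjusted p = 2.15e-07), and over the 8 embryos the rise within an embryo ran from 6.79-fold to 8.99-fold.

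*Hmox1*, inducible haem oxygenase, which opens the haem ring to biliverdin (ENSMUSG00000005413.9, chromosome 8, 75820249 to 75827217, plus strand), was the lowest of the 10 at S1 and the most uneven. Its raw count was 237, 48, 62 and 298 in the WT S1 libraries, or 7.11, 1.12, 1.51 and 6.35 CPM. Embryos 0 and 8 are the S1 libraries described above as standing apart, and the other 6 S1 libraries of all genotypes lay between 1.12 and 2.18 CPM. At S3 the WT level was 27.8, 21.2, 34.5 and 20.1 CPM, above every S1 library. The log2 fold change in WT was 2.71 (SE 0.55, edgeR adjusted p = 0.00132). It was 4.39 without embryos 0 and 8 (edgeR adjusted p = 0.000102).

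Among the genes of the thioredoxin and peroxiredoxin system, *Srxn1* and *Prdx2* rose, and *Txnrd1* and *Prdx1* did not pass the test. *Txnrd1*, cytosolic thioredoxin reductase (ENSMUSG00000020250.12, chromosome 10, 82669785 to 82733546, plus strand), stood at 184, 119, 176 and 275 CPM at S1 and at 183, 156, 156 and 193 CPM at S3 in WT. The stages overlapped, with a log2 fold change of -0.11 (95% interval -0.58 to 0.36, edgeR adjusted p = 0.664).

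*Srxn1*, sulfiredoxin, which restores peroxiredoxins that peroxide has over-oxidised (ENSMUSG00000032802.9, chromosome 2, 151947436 to 151953296, plus strand), was the gene of the 10 with the largest rise. It went from 13.1, 9.05, 12.8 and 19.9 CPM to 241, 184, 230.2 and 282 CPM in WT. The groups were far apart, and the log2 fold change was 4.11 (SE 0.24, edgeR adjusted p = 5.84e-07), a 17.3-fold rise. Within embryos of all genotypes the rise ran from 14.2-fold to 20.3-fold. Without embryos 0 and 8 the log2 fold change was 4.24 for *Srxn1* and 4.39 for *Hmox1*, so that the order of these 2 genes rested on those embryos.

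*Prdx2* (ENSMUSG00000005161.16, chromosome 8, 85696216 to 85701463, plus strand) encodes the red cell's main peroxiredoxin. It rose from 1493, 1156, 1201 and 1191 CPM to 14019, 17577, 17235 and 16080 CPM in WT, or 12.9-fold (log2 fold change 3.69, SE 0.18, edgeR adjusted p = 3.01e-07). *Prdx1*, its widely expressed relative (ENSMUSG00000028691.13, chromosome 4, 116542741 to 116558019, plus strand), stood at 782, 1099, 941 and 507 CPM at S1 and at 596, 1028, 883 and 599 CPM at S3. Its stages overlapped (log2 fold change -0.11, 95% interval -0.72 to 0.50, edgeR adjusted p = 0.743). Within embryos of all genotypes *Prdx2* was 9.39-fold to 17.04-fold higher at S3 than at S1, while *Prdx1* was lower at S3 in 7 of 8 and higher in WT embryo 8 alone, by 1.18-fold. Both genes have annotated pseudogenes whose shared reads were not counted, and 11.5% of the exon bases of *Prdx2* are shared with *Rnaseh2a* and *Junb* on the other strand.

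The level of *Prdx1* varied widely between embryos at each stage. WT embryos 0 and 8 and KO embryo 9, all male, had 507 to 782 CPM at S1 and 592 to 599 CPM at S3. WT embryos 1 and 5 and KO embryo 2, all female, had 941 to 1109 CPM at S1 and 883 to 1028 CPM at S3. Both Het embryos are male and stood at 993 and 1287 CPM at S1 and at 982 and 935 CPM at S3, among the higher values. The 14 hepatoblast genes also summed higher in WT embryos 0 and 8 (386 and 382 CPM at S1, 1044 and 650.4 CPM at S3) than in WT embryos 1 and 5 (69.8 and 88.2 CPM at S1, 324 and 245 CPM at S3). In KO they were higher in embryo 9 than in embryo 2 (196 against 41.3 CPM at S1, 284 against 113 CPM at S3), and their part in the *Prdx1* values was not tested.

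Catalase and superoxide dismutase both rose, by different amounts. *Cat*, which splits hydrogen peroxide in peroxisomes and in the red cell cytosol (ENSMUSG00000027187.11, chromosome 2, 103284194 to 103315505, minus strand), stood at 109, 87.7, 111 and 171 CPM at S1 in WT. At S3 it stood at 1259, 896, 1077 and 1776 CPM, and embryo 8 was the highest at both stages. The log2 fold change was 3.40 (SE 0.27, edgeR adjusted p = 2.63e-06), a 10.6-fold rise. *Sod1*, the copper-zinc superoxide dismutase of the cytosol (ENSMUSG00000022982.11, chromosome 16, 90017642 to 90023217, plus strand), went from 70.1, 51.3, 64.3 and 41.0 CPM to 83.4, 89.2, 88.8 and 95.1 CPM. The stages did not overlap, and it rose by 0.65 on the log2 scale (SE 0.18, edgeR adjusted p = 0.0099).

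Because longer transcripts collect more reads, levels were compared between genes as CPM per kilobase of exon. In WT S3 erythroblasts *Prdx2* was highest at 5321 ± 526 CPM per kb (SD, n = 4), followed by *Cat* at 479 ± 145 and *Prdx1* at 255 ± 70.8. *Nqo1* at 90.8 ± 7.61 and *Srxn1* at 83.0 ± 14.3 overlapped each other, as did *Txnrd1* at 24.3 ± 2.67 and *Sod1* at 22.4 ± 1.202, and *Hmox1* at 14.8 ± 3.80 and *Keap1* at 13.97 ± 0.822. *Nfe2l2* lay apart from its neighbours at 36.7 ± 1.90. At S1 the order began with *Prdx2* at 413 ± 51.3 and *Prdx1* at 273 ± 82.9, which did not overlap, with *Cat* next at 45.8 ± 13.8. The other neighbours in the S1 order, from *Cat* down to *Hmox1* at 2.30 ± 1.79, overlapped.

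**Figure D2:**
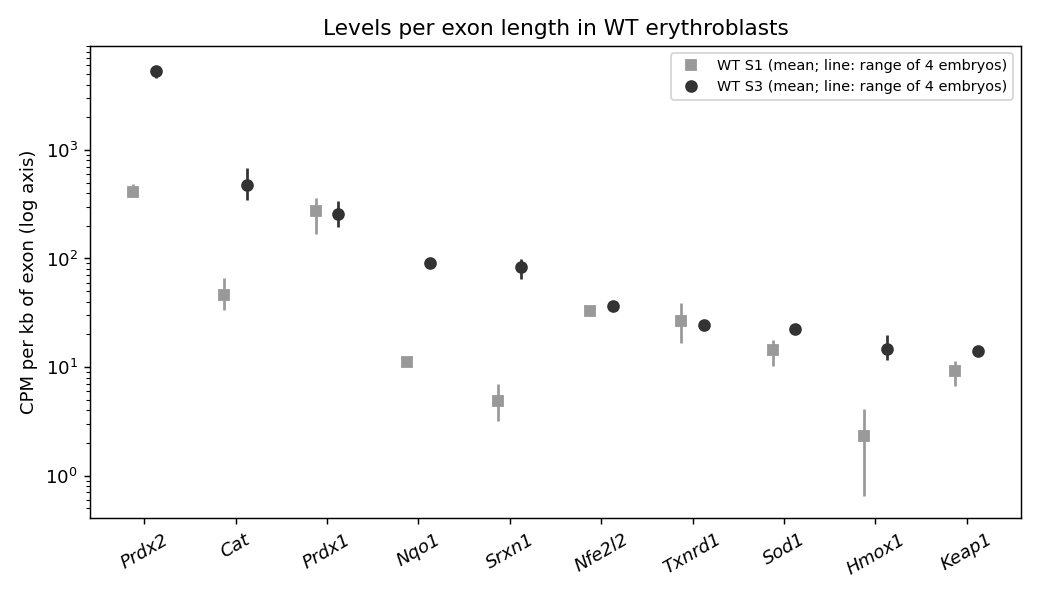
Mean level per kilobase of exon (CPM per kb, log axis) of the 10 genes in WT S1 (squares) and S3 (circles) erythroblasts, ordered by the S3 level, with lines for the range of the 4 embryos. *Prdx2* leads at both stages, and *Cat* passes *Prdx1* at S3 (479 against 255 CPM per kb).

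The same comparison was made within KO and within Het, in fits that also held the WT libraries and so shared their estimate of spread. In KO, 5 of the 10 genes rose and 0 fell (25% of all genes tested rose and 27.9% fell), and in Het 6 rose and 0 fell (28.6% of all genes tested rose and 32.2% fell). *Srxn1* stood at 14.4 and 10.7 CPM in KO at S1 and at 223 and 170.2 CPM at S3, and rose by 3.97 on the log2 scale. In Het it went from 12.9 and 11.7 CPM to 217 and 222 CPM, and rose by 4.14. The SE of these changes was 0.36 in KO and 0.30 in Het, with edgeR adjusted p of 3.78e-06 and 5.04e-07.

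*Prdx2* rose by 3.67 in KO and by 3.87 in Het on the log2 scale, *Cat* by 3.19 and 3.35, and *Nqo1* by 3.03 and 2.86 (edgeR adjusted p at most 2.28e-05 for these 6 changes). *Hmox1* rose by 2.53 in KO (SE 0.75, edgeR adjusted p = 0.0127) and by 4.03 in Het (SE 0.75, edgeR adjusted p = 0.000579). Of the macrophage genes tested, 10 of 13 rose in Het (median log2 fold change 3.37), and in KO 3 of 13 rose and 2 fell (median 1.61). Of 14 hepatoblast genes 9 rose in Het (median 2.52) and 0 in KO (median 0.84), and 7 of 8 neutrophil granule genes fell in Het and 6 of 10 in KO. Their part in these rises was not tested. The KO call of *Hmox1* was lost without either KO embryo, at edgeR adjusted p = 0.142 without embryo 2 and 0.0745 without embryo 9. *Sod1*, at 53.1 and 58.01 CPM in KO at S1 and 72.2 and 81.1 CPM at S3, had a log2 fold change of 0.46 (95% interval -0.03 to 0.95, edgeR adjusted p = 0.105), and in Het it rose by 0.96 (edgeR adjusted p = 0.00314, or 0.0784 without embryo 3). Both KO S3 values of *Keap1*, 63.7 and 58.1 CPM, lay above its S1 values of 45.2 and 40.1 CPM, an order found in 36.7% of all genes. Its log2 fold change in KO was 0.51 (edgeR adjusted p = 0.0669), and with the embryo as a replicate block, which pairs the stages, it passed (edgeR adjusted p = 0.0262). Without WT embryos 0 and 8, 7 of the 10 genes rose in WT, 7 in KO, with *Keap1* and *Sod1* added, and 6 in Het. Over all genes 8488, 7789 and 9277 were then called in either direction, against 8870, 7146 and 8129 with these embryos.

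**Figure D3:**
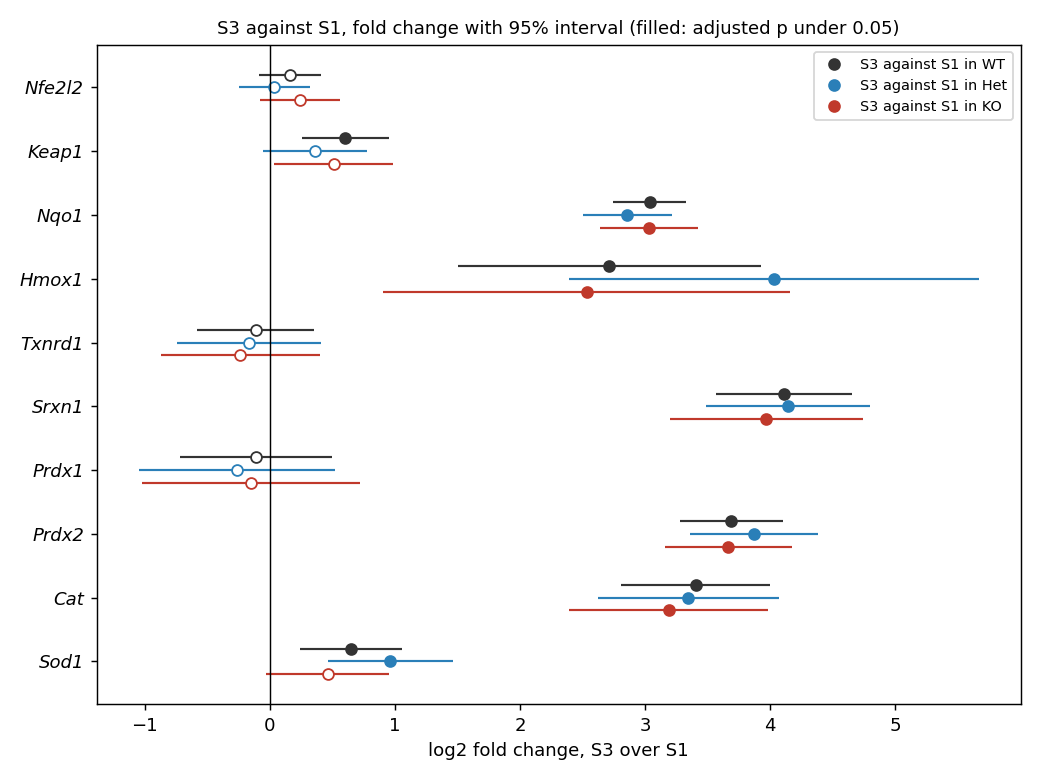
Log2 fold change of S3 over S1 for each gene in WT, Het and KO, with 95% intervals and filled points where the adjusted p was under 0.05. *Srxn1* has the largest value in each genotype (4.11 in WT, 4.14 in Het and 3.97 in KO), though in WT *Hmox1* passes it without embryos 0 and 8 (4.39 against 4.24). In Het *Hmox1* lies close, at 4.03 (SE 0.75). Within Het embryo 3, though not within embryo 4, *Hmox1* (4.11) and *Prdx2* (4.09) exceed *Srxn1* (4.07). *Nfe2l2*, *Txnrd1* and *Prdx1* have intervals that span 0 in all 3 genotypes.

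The effect of losing *Nprl3* was asked at each stage. In KO against WT at S3, 0 of the 10 genes passed the test (edgeR), where 0.559% of 11804 genes tested did, 1 had an unadjusted p under 0.05, against 8.52% of all genes, and 8 of the 10 log2 fold changes lay below 0. The median of the 10 was -0.16, against 0.01 over all genes. In bulk RNA, fewer cells of a type and less RNA per cell cannot be told apart, and the 13 late erythroid genes summed to 160494 and 164978 CPM in KO against 176899 to 214954 CPM in WT, so that both KO libraries lay below all WT libraries. Globin genes weigh heavily in this sum, and *Hba-a1* alone averaged 48939 CPM in KO and 55415 CPM in WT. As single genes all 13 lay below 0 (median -0.24) and 0 had an unadjusted p under 0.05. Both KO libraries lay below all WT libraries for 2 of the 13, against 9.36% of all genes. The part of that difference in the values below was not tested.

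*Hmox1* differed most. It stood at 9.46 and 10.6 CPM in the KO S3 libraries, from 149 and 187 raw counts, against 27.8, 21.2, 34.5 and 20.1 CPM in WT. Both KO libraries lay below all WT libraries and below both Het libraries, which stood at 22.9 and 17.9 CPM. The log2 fold change was -1.36 (SE 0.25, 95% interval -1.93 to -0.80), or 0.389 of the WT level, and missed the threshold after adjustment for all genes tested (edgeR adjusted p = 0.0678). Over the 14 alternatives the log2 fold change ran from -1.49 to -1.21 and the adjusted p from 8.12e-08 to 0.52. It passed with DESeq2 (adjusted p = 5.48e-05), without the filter on low counts (edgeR adjusted p = 9.79e-05) and with sex as a covariate in edgeR (adjusted p = 0.00481) or DESeq2 (adjusted p = 8.12e-08), and in none of the others. In these 4 fits 2.21%, 1.52%, 4.63% and 6.07% of all genes passed, in the same order. Without WT embryos 0 and 8 it was -1.46 (edgeR adjusted p = 0.118).

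Macrophages recycle haem and express *Hmox1*, so their markers are given beside it. The summed level of 15 macrophage genes was 79.1, 81.6, 102.7 and 46.9 CPM in WT at S3, 68.1 and 54.2 CPM in Het and 43.4 and 21.97 CPM in KO. Both KO libraries lay below all WT libraries here too. All 15 genes had counts in WT at S3 and 14 in KO and in Het, where *Cd163* was at 0, and 13 exceeded 1 CPM in WT against 10 in KO. Of the 13 macrophage genes tested in KO against WT at S3, 13 lay below 0, 7 had an unadjusted p under 0.05 and 2 passed (edgeR), with a median log2 fold change of -1.30. The hepatoblast genes moved the same way. All 14 were tested and lay below 0, 9 had an unadjusted p under 0.05 and 0 passed (edgeR), with a median of -1.47. Their summed level at S3 was 113 and 284 CPM in KO, 179 and 239 CPM in Het and 245 to 1044 CPM in WT, so that KO and WT overlapped. Of 8 megakaryocyte genes tested 7 lay above 0 (median 0.78), as did 2 of 3 primitive erythroid genes and 1 of 2 neutrophil granule genes. The part of any of these cell types in the *Hmox1* difference was not tested.

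**Figure D4:**
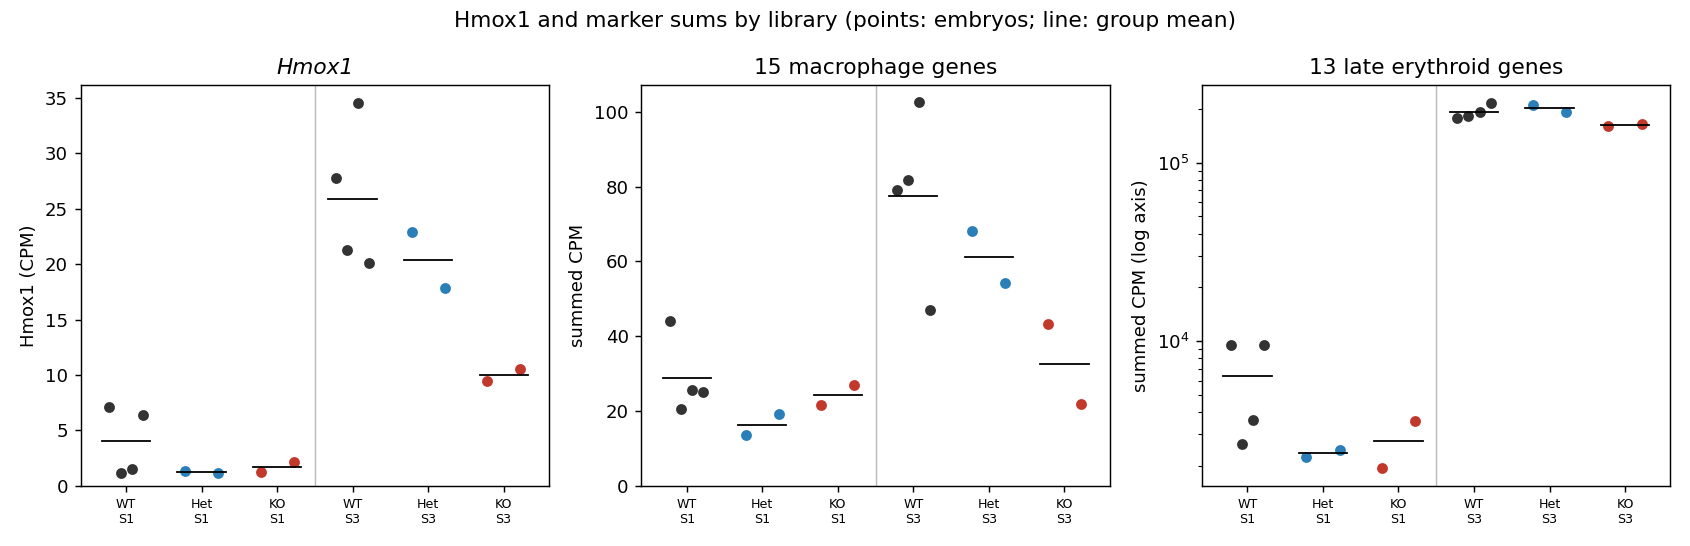
*Hmox1* in CPM, the summed CPM of 15 macrophage genes, and the summed CPM of 13 late erythroid genes (log axis) in the 16 libraries, with points for embryos and lines for group means. At S3 both KO embryos lie lowest for *Hmox1* (9.46 and 10.6 CPM) and for the macrophage sum (43.4 and 21.97 CPM), and WT embryos 0 and 8 lie apart at S1 for *Hmox1* and for the late erythroid sum.

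The other 9 genes had log2 fold changes between -0.24 (*Srxn1*) and 0.10 (*Nfe2l2*) at S3. *Nfe2l2* stood at 147 and 149 CPM in KO, within the WT range, and its 95% interval ran from -0.17 to 0.38. *Sod1*, at 72.2 and 81.1 CPM, lay below all WT libraries (83.4 to 95.1 CPM) with a log2 fold change of -0.20 (95% interval -0.51 to 0.10, edgeR adjusted p = 0.780). With *Hmox1*, 2 of the 10 genes thus had both KO libraries below all WT libraries and 0 had them above, where 9.36% and 9.18% of all genes did.

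*Prdx2*, at 15686 and 13322 CPM, and *Cat*, at 926 and 1243 CPM, had log2 fold changes of -0.15 (95% interval -0.53 to 0.23) and -0.20 (95% interval -0.80 to 0.41). *Nqo1*, at 137 and 112 CPM, had -0.17 (95% interval -0.51 to 0.17) and *Srxn1*, at 223 and 170.2 CPM, had -0.24 (95% interval -0.68 to 0.21). *Keap1* and *Txnrd1* had -0.09 and -0.13, and *Prdx1* had 0.05 (95% interval -0.60 to 0.71). The intervals of these genes do not reach a 2-fold change in either direction, which is the size they allow and no proof that the levels were alike. The sign of *Cat*, *Txnrd1* and *Prdx1* changed without WT embryos 0 and 8, to 0.15, 0.011 and -0.25, and *Srxn1*, *Nqo1* and *Keap1* then had -0.059, -0.085 and -0.042, *Nfe2l2* had 0.066 and *Prdx2* had -0.25.

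At S1, 0 of the 10 genes passed in KO against WT (edgeR), where 0.00712% of 14039 genes did, and 0 had an unadjusted p under 0.05, where 2.53% did. *Hmox1*, at 1.26 and 2.18 CPM in KO, had a log2 fold change of -1.20 (95% interval -3.07 to 0.67). It was 0.37 without WT embryos 0 and 8, so that its sign rested on those embryos. Of the marker genes, 10 of 13 macrophage, 13 of 14 hepatoblast and 12 of 13 late erythroid genes also lay below 0 in KO at S1, and 0 passed (edgeR), with 3, 0 and 1 at an unadjusted p under 0.05. All 3 primitive erythroid genes lay below 0 too (median -0.93). The other way went 10 of 10 neutrophil granule genes (median 0.63) and 6 of 8 megakaryocyte genes (median 0.26). The part of these cells in the *Hmox1* value was not tested. The other 9 of the 10 genes had log2 fold changes between -0.18 (*Nqo1*) and 0.08 (*Prdx1*), and the sign of 7 of them, all but *Nqo1* and *Prdx2*, changed in at least 1 of the 14 alternatives. *Prdx1* ran from -0.34 to 0.40, *Srxn1* from -0.34 to 0.18, *Txnrd1* from -0.19 to 0.30 and *Cat* from -0.12 to 0.24 over these alternatives, and none passed in any. For *Nqo1* both KO libraries, at 16.2 and 14.1 CPM, lay below all WT libraries, an order found in 3.26% of all genes. The change of the KO effect from S1 to S3 passed in 0 of the 10 genes (edgeR interaction), where 0.00742% of 13485 genes did, and 0 had an unadjusted p under 0.05, where 3.11% did. The values ran from -0.19 to 0.09, and for *Hmox1* it was -0.15 with a 95% interval from -2.07 to 1.76, or -1.86 without WT embryos 0 and 8 (edgeR adjusted p = 1.00).

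Het embryos were compared with the same WT libraries, so that the KO and Het comparisons are not independent. At either stage 0 of the 10 genes passed (edgeR), as did 0% of all genes, and 0 had an unadjusted p under 0.05, where 4.26% of all genes did at S1 and 3.18% at S3. For *Nqo1* at S1 both Het libraries, at 17.8 and 18.6 CPM, lay just above all WT libraries, an order found in 10.6% of all genes. *Hmox1* had a log2 fold change of -1.70 at S1 (95% interval -3.58 to 0.18), from 1.33 and 1.14 CPM, and it was -0.12 without WT embryos 0 and 8. With sex as a covariate it passed (-2.44, edgeR adjusted p = 0.00521), as did 2.87% of all genes, and 5.77% in DESeq2 with sex, where it passed too. Many marker genes also lay lower in Het at S1. Below 0 were 13 of 14 hepatoblast genes (median -2.48), 12 of 13 macrophage genes (median -1.27) and 10 of 13 late erythroid genes (median -1.52). In these lists 12, 4 and 8 genes had an unadjusted p under 0.05 and 0 passed (edgeR). All 8 megakaryocyte and 3 primitive erythroid genes tested lay below 0 too, while 7 of 10 neutrophil granule genes lay above 0 (median 0.95). The macrophage sum was 13.6 and 19.1 CPM in Het against 20.6 to 44.0 CPM in WT, and the part of these cells in the *Hmox1* value was not tested. At S3 *Hmox1* had a log2 fold change of -0.36 (95% interval -0.88 to 0.16). *Sod1* at S3 stood at 101 and 102 CPM in Het, above all WT libraries (6.96% of all genes), with a log2 fold change of 0.18 (95% interval -0.09 to 0.44).

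Both Het embryos are male, and of the WT embryos 0 and 8 share their sex. With sex as a covariate 18.1% of all genes passed in Het against WT at S3 in edgeR and 18.4% in DESeq2, against 0% in edgeR without it, and 3 and 4 of the 10 genes were among them. *Prdx1* then had a log2 fold change of 0.67 (edgeR adjusted p = 0.00433) in place of 0.29, *Cat* had -0.55 (edgeR adjusted p = 0.0414) in place of -0.27, and *Txnrd1* had -0.31 (edgeR adjusted p = 0.0422) in place of -0.18. Without WT embryos 0 and 8 the values were -0.01 for *Prdx1*, 0.08 for *Cat* and -0.04 for *Txnrd1*, and none passed. Without sex in the fit, 14 of 14 hepatoblast (median -1.31), 13 of 13 macrophage (median -0.24) and 8 of 8 megakaryocyte genes (median -0.67) lay below 0 in Het at S3. Of these 11, 2 and 0 had an unadjusted p under 0.05 and 0 passed (edgeR). Above 0 lay 8 of 13 late erythroid genes (median 0.07) and 2 of 3 primitive erythroid genes. The part of these cells in the values above was not tested. The interaction of the Het effect with stage passed in 0 of the 10 genes (edgeR) and in 0% of all genes, and 0 had an unadjusted p under 0.05, where 2.8% of all genes did. For *Hmox1* it was 1.31 (95% interval -0.51 to 3.13), and -0.34 without WT embryos 0 and 8.

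**Figure D5:**
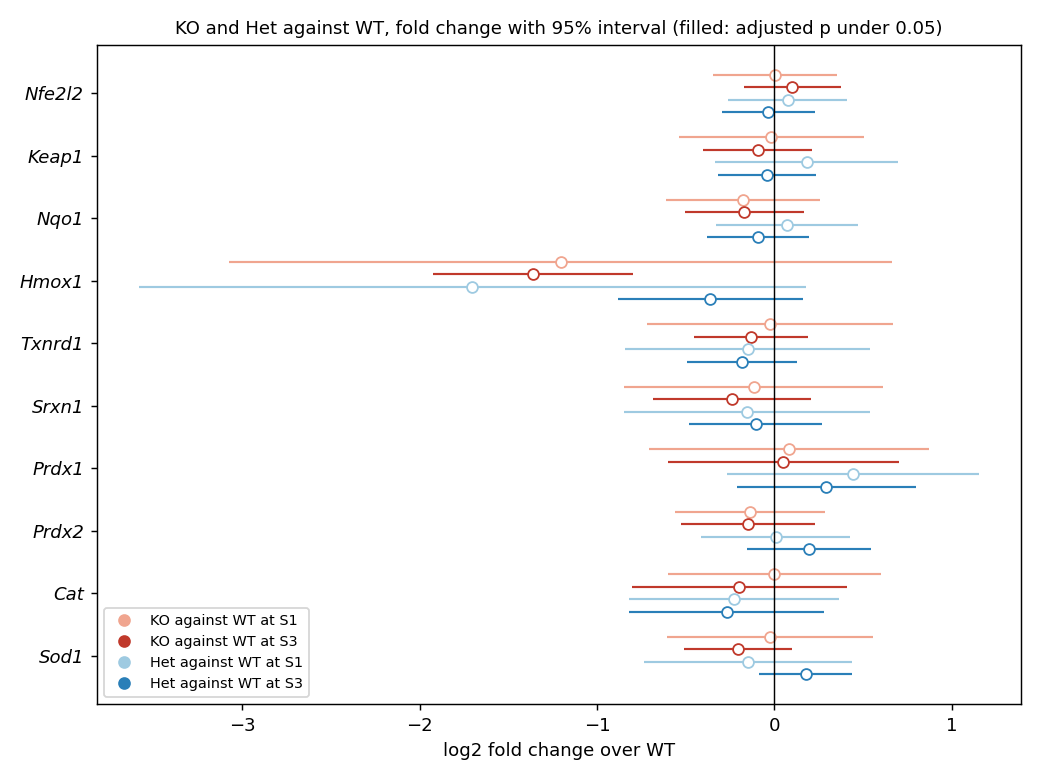
Log2 fold change of KO and of Het over WT at S1 and S3 for each gene, with 95% intervals and filled points where the adjusted p was under 0.05, of which there are 0. *Hmox1* in KO at S3 (-1.36, interval -1.93 to -0.80) lies apart from 0 and the intervals of the other genes span it.

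The wider pathway was described over 3 further lists. Of 12 genes that control NRF2 or share its DNA sites, 11 were tested between stages in WT, 7 rose and 1 fell (median log2 fold change 2.22), where 30.6% of all genes tested rose and 35% fell, with a median of -0.08. *Nfe2*, the erythroid NF-E2 subunit related to NRF2, rose by 4.14 from 107 ± 5.68 to 1892 ± 284 CPM (SD, n = 4). *Btrc*, an F-box protein that offers NRF2 a KEAP1-independent route to destruction, rose by 3.28, and *Maff*, a small MAF, fell by 3.41, at 3.40 CPM or less at S1 and 0.26 CPM or less at S3. The edgeR adjusted p of these 3 changes was at most 0.000291.

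Of 19 further NRF2 targets, 18 were tested between stages in WT, 13 rose and 4 fell (median 1.39), against the same 30.6% and 35% of all genes. The largest changes were in genes of iron storage and haem breakdown, *Ftl1* (3.26, ferritin light chain), *Blvrb* (3.26, biliverdin reductase B) and *Fth1* (2.96, ferritin heavy chain). Of 20 further genes of peroxide and superoxide defence, 19 were tested, 10 rose and 4 fell (median 0.51), against the same shares. *Gpx1*, the glutathione peroxidase of the red cell, rose by 3.93 from 1831 ± 331 to 27965 ± 2804 CPM (SD, n = 4). *Txnrd2*, mitochondrial thioredoxin reductase, rose by 2.78, and *Txnrd3* fell by 4.49 from 13.53 ± 2.54 to 0.583 ± 0.121 CPM (SD, n = 4). The edgeR adjusted p of these 6 changes was at most 1.25e-06.

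In KO against WT at S3, 10 control genes, 18 targets and 19 genes of peroxide and superoxide defence were tested, and 1 of them passed, where 0.559% of all genes did. This was *Slc7a11*, the cystine importer that feeds glutathione synthesis. It stood at 14.9 and 18.6 CPM in KO against 0.964 to 1.97 CPM in WT, with a log2 fold change of 3.60 (SE 0.29, edgeR adjusted p = 0.00428). Both KO libraries lay above all WT libraries, an order found in 9.18% of all genes. At S1 it stood at 1.74 and 1.79 CPM in KO against 0.149 to 0.750 CPM in WT, the latter from 7 to 27 raw counts. The order was the same there, as in 6.57% of all genes at S1. The log2 fold change there was 1.77 (SE 0.55) and did not pass (edgeR adjusted p = 1.00). The next targets by p were *Me1* (malic enzyme, -0.76) and *Abcc1* (a glutathione conjugate exporter, 0.64), with edgeR adjusted p of 0.602 for both. Of the control genes *Mafg* (-0.25), *Btrc* (-0.21) and *Nfe2* (-0.18) had the smallest p, at edgeR adjusted p from 0.857 to 0.871. Without WT embryos 0 and 8 they were -0.0079, 0.0017 and -0.029. In the peroxide list *Sesn2*, sestrin 2, had 0.63 (edgeR adjusted p = 0.305), *Glrx* 0.52 (edgeR adjusted p = 0.720) and *Txnrd3* 0.70 (edgeR adjusted p = 0.726). *Sesn2* passed with sex as a covariate (edgeR adjusted p = 0.0212). The list medians were -0.15 for control, -0.08 for targets and 0.12 for peroxide and superoxide defence, against 0.01 over all genes.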

How the data were processed

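RNA was amplified by the SMARTer method before polyA-enriched libraries were made. The authors mapped read pairs to mm39 with STAR 2.7.9 and counted them per Ensembl gene with featureCounts 1.6.4, and deposited raw counts and the summed exon length of each gene. Per the file header strand was not used and multi-mapping or multi-overlapping reads were left out. The table has 4 library columns that were not used. GENCODE mouse release 39 gave symbols for 54749 of the 55416 genes, and 667 were not matched. Labels name an embryonic stem cell line as source, while their titles give foetal liver, and the latter was used. Nothing says whether embryos shared a litter.

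The members and lists were chosen with earlier results of these data known. Genes with a mean TMM-normalized count over 10 were tested in edgeR 4.0.16 (quasi-likelihood, package defaults, R 4.3.3) with Benjamini-Hochberg adjustment over all genes tested and a threshold of 0.05. WT-only or 2-genotype sets of libraries entered each fit, with 1 mean per group and no covariate. Scripts were tested on simulated counts. Alternatives were DESeq2 1.42.0, RLE scaling, globin genes out of the scaling, no filter, all 16 libraries, sex as a covariate, an embryo block, and leaving out each embryo; leaving out WT embryos 0 and 8 together was chosen after seeing the data. Of each further list, the text names the 3 called genes with the largest change between stages in WT and the 3 with the smallest p in KO at S3.

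Same-numbered libraries of both stages come from the same embryo. Deviations of log2 CPM from the group mean were correlated between the stages of an embryo (13485 genes) at r = 0.05, 0.29, 0.41 and 0.41 in WT embryos 0, 1, 5 and 8, 0.53 in KO and 0.07 in Het. Promoters are RefSeq's.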

Additional observations from a re-analysis of the deposited data

Results flagged for a closer look

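In WT, 2 values stood away from the other 3 embryos of their group by Dixon's criterion, among 20 gene and stage groups of 4 embryos, and chance gives about 1 in 20. *Nfe2l2* at S3 was 150.2 CPM in embryo 1 against 135 to 136 CPM in the others. *Prdx2* at S1 was 1493 CPM in embryo 0 against 1156 to 1201 CPM in the others, and embryo 0 is among the S1 libraries with a high late erythroid sum (9529 CPM).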

How the results depend on the processing

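The number of the 10 genes called was 7 in WT between stages under every alternative. In KO against WT at S3 it was 1 (*Hmox1*) with DESeq2, without the filter, and with sex as a covariate in edgeR or DESeq2, against 0. In Het against WT with sex as a covariate it was 1 at S1 (*Hmox1*, -2.44 in edgeR and DESeq2, where 2.87% and 5.77% of all genes passed), and at S3 it was 3 in edgeR and 4 in DESeq2 (*Prdx2*, 0.33, added), where 18.1% and 18.4% of all genes passed, against 0. Leaving out each embryo gave 4 to 7 between stages in KO, 5 to 7 in Het, 7 to 7 in WT and 0 to 0 in the other comparisons. With the replicate block that pairs the stages, 7 of the 10 genes were called in WT, 6 in KO, 6 in Het and 0 in each interaction. Over all genes the block called 9410, 7857 and 8667 between stages, and 1 and 0 in the KO and Het interactions. Without WT embryos 0 and 8, the counts of the 10 genes were 7, 7, 6 and 0. Over all genes they were then 8488, 7789 and 9277 between stages, and 1 and 0 in the interactions. The sign changed without WT embryos 0 and 8 for *Hmox1* in KO at S1 (0.37) and in the Het interaction (-0.34), for *Txnrd1* (0.011), *Prdx1* (-0.25), *Cat* (0.15) and *Btrc* (0.0017) in KO at S3, for *Prdx1* (-0.0051) and *Cat* (0.077) in Het at S3, and for *Txnrd1* between stages in WT (0.079). It changed for *Nfe2l2* between stages in Het without the filter (-0.075). With single embryos left out, *Prdx1* in KO at S3 ran from -0.39 to 0.39, *Txnrd1* between stages from -0.23 to 0.074 in WT and from -0.34 to 0.022 in Het, *Nfe2l2* in Het from -0.036 to 0.099, and *Hmox1* in the KO interaction from -0.58 to 0.24. The cause was not tested. Over all genes, the number called in KO at S3 was 66, and 259 with DESeq2, 356 without the filter, 114 with all libraries, 547 and 713 with sex in edgeR and DESeq2, and 5 without WT embryos 0 and 8. Leaving out single embryos gave 11 to 42, with 11 without WT embryo 0 or 8, 27 without WT embryo 1, 42 without WT embryo 5, and 39 and 42 without KO embryos 2 and 9. In KO at S1 it was 1, and 45, 7, 2, 21, 185 and 2 in the same order. In Het at S1 it was 0, and 22 with DESeq2, 397 and 793 with sex, and 5 without WT embryos 0 and 8. In Het at S3 it was 0, and 1 with DESeq2, 57 without the filter, 2124 and 2149 with sex, and 8 without WT embryos 0 and 8. In the KO interaction it was 1, and 12 with DESeq2, 3 without the filter and 2 with all libraries, and in the Het interaction 0, and 6 without the filter. Between stages in KO it was 7146, and 4478 and 4643 without KO embryos 2 and 9, and in Het it was 8129, and 5143 without Het embryo 3. With 2 KO and 2 Het embryos, the number of embryos limits the precision, and *Hmox1* at S1 rests on 41 to 298 counts per library.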
